A study of Sus scrofa with 23 samples.

Results

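The hypertrophic chondrocyte genes COL10A1, IHH, PTH1R, MMP13 and ALPL were followed in articular cartilage of pigs with and without osteochondrosis, a disorder in which growing joint cartilage does not turn into bone in an orderly way. These 5 genes were matched by platform gene symbol, 5 of the 6765 gene symbols there, which gave 7 of the 24123 probe sets of the Affymetrix Porcine Genome Array: 2 each for IHH and MMP13 and 1 each for the other genes. The animals came from a cross of Duroc and Pietrain pigs, and affected animals were set beside non-affected sibs. Cartilage came either from the medial part of the humeral condyle (elbow) or from the medial femoral condyle (knee). Of 23 arrays, 14 carried humeral cartilage, 8 from affected joints and 6 not, and 9 femoral cartilage, 4 affected and 5 not. The labels call the source the joint surface, state neither the age of the animals nor how deep the tissue was cut, and tie no array to an animal or a sib. The p-values therefore reflect the spread among these samples alone, which may be technical, and the numbers given to samples only name them.

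In growing cartilage, chondrocytes first divide, then enlarge into hypertrophic cells, and the matrix around these is mineralised, opened by proteases and replaced by bone. IHH is the secreted hedgehog ligand made as cells leave division, and through parathyroid hormone-related protein and its receptor PTH1R it delays the further maturation of their neighbours. COL10A1 encodes type X collagen, the matrix collagen that defines hypertrophic cartilage. ALPL is the tissue-nonspecific alkaline phosphatase, which releases phosphate for mineral deposition and is also made by osteoblasts. MMP13 is a collagenase that cuts type II collagen in the last hypertrophic cells and is made by osteoblasts as well. COL10A1, ALPL and PTH1R together mark the deep, maturing side of cartilage near bone.

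The deposited values are on a log2 scale with a floor at 4; a value less than 0.05 above it is counted here as at the floor. Over all probe sets, the difference between the arrays humerus affected 5 and 6 had an SD of 0.11 and that between femur non-affected 1 and 2 one of 0.21, against at least 0.34 for every other pair of a group, so each of these pairs was averaged and counted as 1 sample (written 5/6 and 1/2). This left 21 samples, 7 affected and 6 non-affected of the humerus and 4 of each status of the femur. Array medians ran from 6.04 to 6.32, and from 1.69% to 5.08% of the probe sets of an array were at the floor. All 7 member probe sets passed the filter on low means, which kept 16799 probe sets. MMP13 (S1), with a mean of 5.69 against a bound of 5.30, passed only through the humerus, where its mean was 6.24 against 4.79 in the femur. The tissue label was checked against defining cartilage genes: the mean of the 6 cartilage matrix genes named on the array lay between 11.38 and 12.90 in all 21 samples. A high mean of this kind marks cartilage RNA in each sample but cannot tell whether other tissue was present too.

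COL10A1 was present at high values in most humeral samples and at or near the floor in most femoral ones. In affected humerus its lowest, median and highest values were 5.38, 11.88 and 13.07, and in non-affected humerus 4.01, 11.47 and 13.35. In affected femur samples 1 to 4 read 9.08, 4.0, 11.16 and 5.04, and in non-affected femur samples 1/2, 3, 4 and 5 read 4.01, 4.0, 10.11 and 4.0. Thus humerus affected 7 (5.38) and humerus non-affected 5 (4.01) were low among humeral samples, while femur affected 1, femur affected 3 and femur non-affected 4 were high among femoral ones. In arrays, 5 of 9 femoral and 1 of 14 humeral readings lay at the floor. In samples these were 3 of 4 non-affected and 1 of 4 affected in the femur, and 1 of 6 non-affected and 0 of 7 affected in the humerus. The humeral means were 11.07 ± 2.66 (SD, n = 7) with disease and 10.60 ± 3.44 (SD, n = 6) without, and the femoral means 7.32 ± 3.37 and 5.53 ± 3.05 (SD, n = 4 each). Within each site the statuses overlapped and their means differed by less than the spread. In tissue samples such as these, fewer cells of a type and less RNA per cell cannot be told apart.

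**Figure D1:**
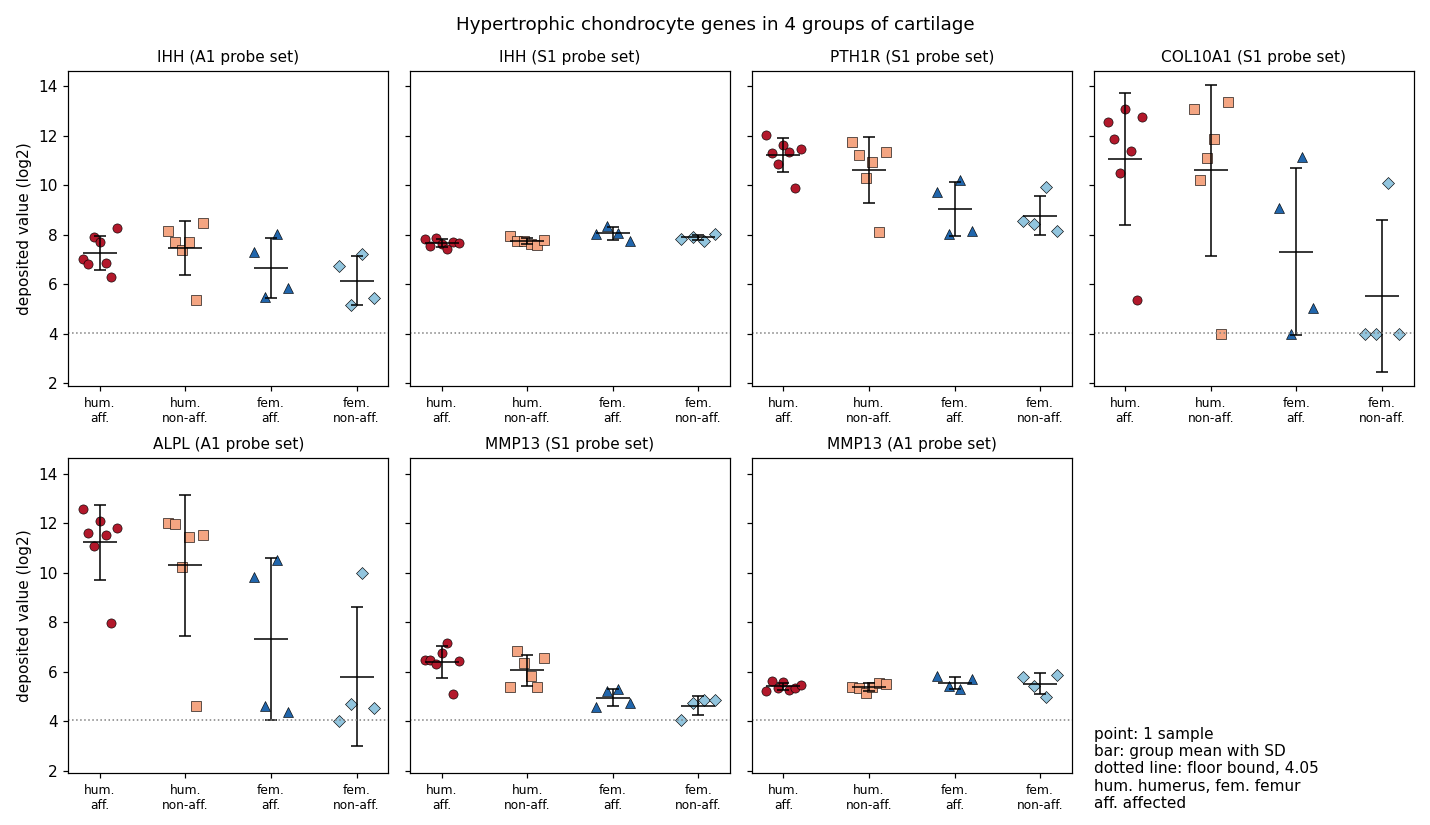
Deposited log2 values of the 7 member probe sets in the 4 groups, with 1 point per sample and bars for the group mean with its SD; the dotted line is the floor bound. COL10A1 and ALPL run over nearly the whole scale within a group, with 3 high femoral samples and 2 low humeral ones, while the S1 probe set of IHH and the A1 probe set of MMP13 stay in a narrow band.

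ALPL showed the same samples as high and low. Its lowest, median and highest values were 7.97, 11.60 and 12.55 in affected humerus and 4.64, 11.48 and 12.01 in non-affected humerus. Affected femur samples 1 to 4 read 9.82, 4.64, 10.49 and 4.39, and non-affected femur samples 1/2, 3, 4 and 5 read 4.01, 4.70, 9.98 and 4.53. Humerus non-affected 5, at 4.64, lay inside the range of the 5 low femoral samples, and humerus affected 7, at 7.97, lay between the low and the high ones. Only femur non-affected 1/2 was at the floor. The group means were 11.23 ± 1.51 (SD, n = 7), 10.30 ± 2.85 (SD, n = 6), 7.33 ± 3.27 (SD, n = 4) and 5.81 ± 2.80 (SD, n = 4), in the order affected and non-affected humerus, affected and non-affected femur.

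PTH1R, the receptor that carries the parathyroid hormone-related signal, never came near the floor and had the same samples high and low over a smaller range. It read 9.90, 11.35 and 12.03 (lowest, median, highest) in affected humerus and 8.13, 11.09 and 11.76 in non-affected humerus. In affected femur samples 1 to 4 read 9.73, 8.03, 10.23 and 8.17, and in non-affected femur samples 1/2, 3, 4 and 5 read 8.56, 8.43, 9.93 and 8.15. Only 2 of 13 humeral samples, affected 7 and non-affected 5, lay at or below the highest femoral value. The humeral means were 11.21 ± 0.68 (SD, n = 7) with disease and 10.61 ± 1.31 (SD, n = 6) without, and the femoral means 9.04 ± 1.11 and 8.77 ± 0.79 (SD, n = 4 each).

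The 2 probe sets of IHH, the hedgehog ligand, did not behave alike. The probe set with the suffix A1 read 6.29, 7.02 and 8.25 (lowest, median, highest) in affected and 5.37, 7.71 and 8.47 in non-affected humerus. It read 7.31, 5.48, 8.04 and 5.84 in affected femur samples 1 to 4, and 6.74, 5.18, 7.23 and 5.46 in non-affected femur samples 1/2, 3, 4 and 5. The lowest humeral values were again those of non-affected 5 and affected 7, and the highest femoral ones those of affected 3, affected 1 and non-affected 4. The averaged arrays femur non-affected 1 and 2 differed here, at 7.17 and 6.32. The probe set with the suffix S1 was brighter on average and stayed between 7.44 and 8.36 in all 21 samples. Its within-group SD of 0.16 was smaller than the median of 0.27 over all tested probe sets, whereas that of the A1 probe set was 0.98. The files do not say which of the pair reads the coding strand, so the result for IHH depends on the probe set. None of the IHH values was at the floor.

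MMP13 also had 1 probe set that varied and 1 that did not. The S1 probe set read 5.10, 6.48 and 7.15 (lowest, median, highest) in affected and 5.38, 6.10 and 6.82 in non-affected humerus. In affected femur samples 1 to 4 it read 4.58, 5.21, 5.31 and 4.73, and in non-affected femur samples 1/2, 3, 4 and 5 it read 4.06, 4.74, 4.87 and 4.85. Humerus affected 7 was the only humeral sample at or below the highest femoral value. The femoral samples with high COL10A1 were not set apart here: affected 1 (4.58) lay below affected 2 (5.21). 1 of 9 femoral arrays was at the floor. The A1 probe set stayed between 4.96 and 5.88 in all samples, with a within-group SD of 0.24.

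The design asks first whether affected cartilage differs from non-affected cartilage. No member probe set passed in either site, over both sites or in the test of whether the status effect differs between sites. COL10A1 differed by 0.98 ± 1.22 (SE) over both sites (limma, adjusted p = 0.872) with a 95% confidence interval from -1.56 to 3.51. ALPL differed by 1.16 ± 0.996 (SE, interval -0.91 to 3.23; adjusted p = 0.800) and PTH1R by 0.47 ± 0.39 (SE, interval -0.34 to 1.29; adjusted p = 0.791). MMP13 (S1) differed by 0.33 ± 0.22 (SE, interval -0.12 to 0.79; adjusted p = 0.761) and IHH by 0.07 ± 0.39 at A1 and 0.02 ± 0.08 at S1. The background of calls was 0.0% of 16799 probe sets over both sites, 0.0% in the humerus, 1.14% in the femur and 0.268% for the difference between sites. The 2 counts of 0 came from limma, with 1223 and 1100 probe sets at an unadjusted p under 0.05.

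Within the femur the affected mean of COL10A1 lay 1.79 ± 2.004 (SE) above the non-affected mean (limma, adjusted p = 0.642) and that of ALPL 1.53 ± 1.64 (adjusted p = 0.624). These differences rest on single samples. Without femur affected 3 that of COL10A1 was 0.51 and without femur non-affected 4 it was 3.32, and for ALPL these values were 0.48 and 2.92. That of PTH1R was 0.27, and -0.12 without femur affected 3. Within the humerus COL10A1 differed by 0.47 and ALPL by 0.93, and without humerus non-affected 5 these turned to -0.85 and -0.20. PTH1R differed there by 0.60, and by 0.10 without that sample. In two-sided exact permutation tests of the affected against the non-affected samples, the smallest member p was 0.353 in the humerus, where the design allows 0.000583, and 0.286 in the femur, where it allows 0.0286. In no member probe set did affected and non-affected samples of a site lie apart without overlap, against a background of 0.22% of tested probe sets in the humerus and 8.08% in the femur.

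The next comparison was between the joints. COL10A1, ALPL, PTH1R and the S1 probe set of MMP13 were lower in the femur, the S1 probe set of IHH was slightly higher there, and the A1 probe sets of IHH and MMP13 did not pass. COL10A1 was lower by 4.39 log2 units (difference -4.39 ± 1.26 SE; limma with status in the model, adjusted p = 0.00631) and ALPL by 4.19 (difference -4.19 ± 1.02 SE; adjusted p = 0.00206). The difference of PTH1R was -2.01 ± 0.40 (SE, adjusted p = 3.92e-04) and that of MMP13 (S1) -1.43 ± 0.23 (SE, adjusted p = 3.90e-05). IHH differed by 0.27 ± 0.08 (SE, adjusted p = 0.0107) at S1 and by -0.94 ± 0.40 (SE, adjusted p = 0.0545) at A1, and MMP13 (A1) by 0.14 ± 0.11 (SE, adjusted p = 0.292). In this comparison 51.8% of all probe sets were called, 34.2% lower and 17.6% higher in the femur, beside 4 lower and 1 higher of the 7 members; a count of that kind is no result about the members. Counted from the most negative of 16799 differences, COL10A1 was at rank 6, ALPL at rank 8, PTH1R at rank 174 and MMP13 (S1) at rank 472. For COL10A1, the floor held 4 of 8 femoral and 1 of 13 humeral samples, so the size of its difference depends on where the floor is, and with floor values set to missing it was -2.41 (adjusted p = 0.104). The order of group means was the same for COL10A1, ALPL, PTH1R and MMP13 (S1): affected humerus, non-affected humerus, affected femur, non-affected femur. Neighbours within a joint did not differ beyond their spread. In no member did the joints lie apart without overlap, against 4.51% of all tested probe sets: of 13 humeral samples 3 for ALPL, 5 for COL10A1, 2 for PTH1R and 1 for MMP13 (S1) lay at or below the highest femoral value.

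**Figure D2:**
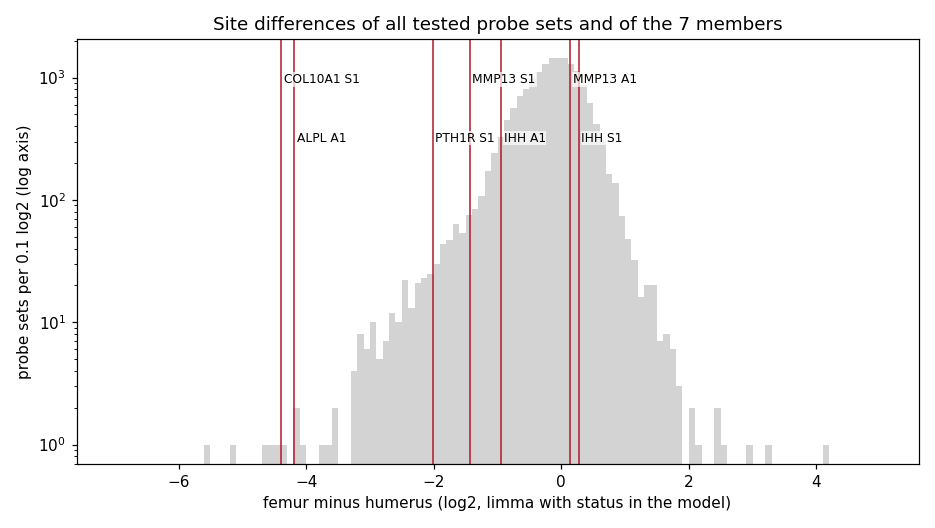
Histogram of femur minus humerus differences (log2) of the 16799 tested probe sets, with the number of probe sets per 0.1 log2 on a log axis and red lines at the 7 members. COL10A1 (-4.39) and ALPL (-4.19) lie in the sparse lower tail, and the A1 and S1 probe sets of IHH, and likewise of MMP13, lie on opposite sides of 0.

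Site goes together with how the arrays read. For 8 of 9 probe sets of the bacterial and phage control RNAs added to each hybridisation, femoral and humeral arrays did not overlap, and all 9 averaged higher in the femur. The 3' probe set of BioB, for example, read 8.14 ± 0.11 (SD, n = 14) on humeral and 9.76 ± 0.11 (SD, n = 9) on femoral arrays. Over both joints the site of the cartilage and the handling of its arrays therefore cannot be told apart. At this probe set humerus non-affected 5 (COL10A1 4.01) read 8.29, humerus affected 7 (COL10A1 5.38) 8.095 and humerus non-affected 6 (COL10A1 13.35) 8.13. Femur affected 3 (COL10A1 11.16) read 9.82 and femur affected 4 (COL10A1 5.04) read 9.84. Humerus non-affected 5 was the highest of the 14 humeral arrays at the control probe sets BioB-5 (8.40), BioB-M (8.48), BioC-3 (9.83) and BioC-5 (9.61). The part of array handling in the differences within a joint was not tested. The actin 3' minus 5' difference, a sign of RNA quality, ran from 2.63 to 3.55 on humeral and from 2.43 to 3.07 on femoral arrays. Among the femoral arrays with high COL10A1 it was 2.67 in affected 1, 2.84 in affected 3 and 2.43 in non-affected 4, the lowest of all arrays. Of the humeral arrays with low COL10A1, non-affected 5 had 2.99 and affected 7 had 3.51, the second highest of all arrays. The part of RNA quality in these values was not tested. The scaling of the arrays also matters for direction. The median over all probe sets was -0.12, and 66% of the calls were lower in the femur as deposited, 45.4% after quantile normalisation and 43.3% after centring each array on its median. The 5 member calls held their direction under both scalings, with COL10A1 at -4.26 and -4.22, and MMP13 (A1) was called as higher in the femur under both (0.27 and 0.31).

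**Figure D3:**
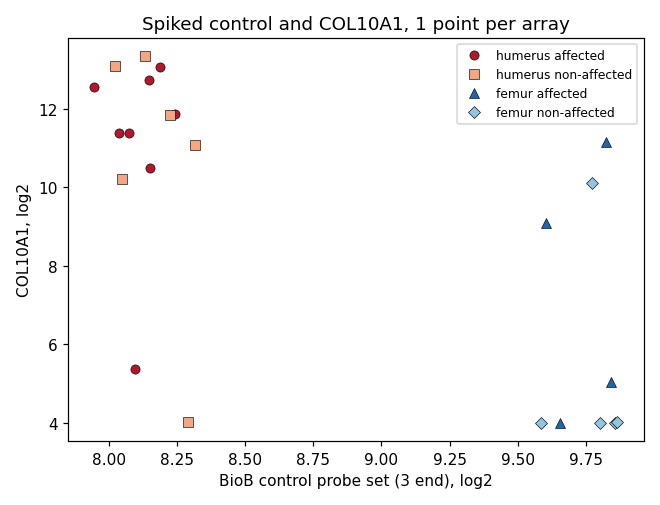
COL10A1 (log2) against the 3' probe set of the BioB control (log2), with 1 point per array. The control splits the arrays by joint, around 8.14 and 9.76, while high and low COL10A1 occur at both levels of it.

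The members differed in how much they varied among samples of 1 group. After the 4 group means were removed, COL10A1 had an SD of 3.10, the second highest of 16799 probe sets, and ALPL one of 2.54, at rank 12. PTH1R (0.998) and the A1 probe set of IHH (0.98) lay at ranks 290 and 307, within the top 1.73% and 1.83%. MMP13 (S1) had 0.55, at rank 1483. The S1 probe set of IHH (0.16, rank 15257) and the A1 probe set of MMP13 (0.24, rank 10539) varied less than the median probe set (0.27).

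The members were then compared over samples within each joint, using the brighter probe set of each gene, which is S1 for IHH and for MMP13. Of 20 relations, 6 passed by Pearson's r after adjustment over all 20, 3 in each joint, and these were the same 3 pairs among ALPL, COL10A1 and PTH1R. By Spearman's rho 2 passed, both in the humerus. Over the 13 humeral samples ALPL and PTH1R had r = 0.98 (permutation p = 1e-05, the smallest that 100000 resamples can give; adjusted p = 2e-04) and rho = 0.92 (permutation p = 3e-05; adjusted p = 6e-04). Without the 2 samples farthest from the median of ALPL, humerus non-affected 5 and affected 7, r was still 0.95 (n = 11). COL10A1 and PTH1R had r = 0.90 (permutation p = 1.3e-04; adjusted p = 0.0013) and rho = 0.81 (permutation p = 0.00118; adjusted p = 0.0118), and r = 0.61 without those 2 samples. ALPL and COL10A1 had r = 0.93 (permutation p = 5.8e-04; adjusted p = 0.00387), rho = 0.69 (permutation p = 0.0109; adjusted p = 0.0727) and r = 0.46 without them. The relations of COL10A1 thus rest in good part on the 2 low samples, and that of ALPL with PTH1R does not.

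MMP13 (S1) was only loosely tied to the others in the humerus. Its r was 0.63 with ALPL (permutation p = 0.0196; adjusted p = 0.0559), 0.59 with COL10A1 (permutation p = 0.0339; adjusted p = 0.0848) and 0.56 with PTH1R (permutation p = 0.0404; adjusted p = 0.0899). Without the 2 farthest samples these were 0.03, -0.27 and, with MMP13 on the x axis, -0.004. In the humerus the S1 probe set of IHH had an r between -0.28 and 0.24 with the other members. With all 7 probe sets and 42 relations, an analysis added after the data were seen, the A1 probe set of IHH passed with COL10A1 in the humerus (r = 0.82, permutation p = 0.00119; adjusted p = 0.0117), with ALPL (r = 0.78, permutation p = 0.00452; adjusted p = 0.0211) and with PTH1R (r = 0.72, permutation p = 0.00914; adjusted p = 0.0349). Without the 2 farthest samples these r were 0.35, -0.004 and -0.01. None of these 3 humeral relations passed by Spearman's rho (adjusted p = 0.104, 0.413 and 0.373 in the same order). In the femur the A1 probe set of IHH passed by rho with COL10A1 (rho = 0.93, n = 8, permutation p = 0.00223, adjusted p = 0.03125). Of these 8 COL10A1 values 4 lay at the floor, and rho ranks the tiny differences among them. This rho therefore rests in part on an order that the floor makes uncertain. By rho it did not pass there with PTH1R (rho = 0.81, adjusted p = 0.131) or ALPL (rho = 0.52, adjusted p = 0.413). By Pearson's r it passed there with COL10A1 and PTH1R and not with ALPL. The femoral samples fall into separate clusters for ALPL, 3 between 9.82 and 10.49 and 5 between 4.01 and 4.70, each with fewer than 6 samples, so no r is given there. In those 3 samples COL10A1 read at least 9.08 and PTH1R at least 9.73, and in the other 5 COL10A1 read at most 5.04 and PTH1R at most 8.56. The 3 consist of 2 affected samples and 1 non-affected sample.

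**Figure D4:**
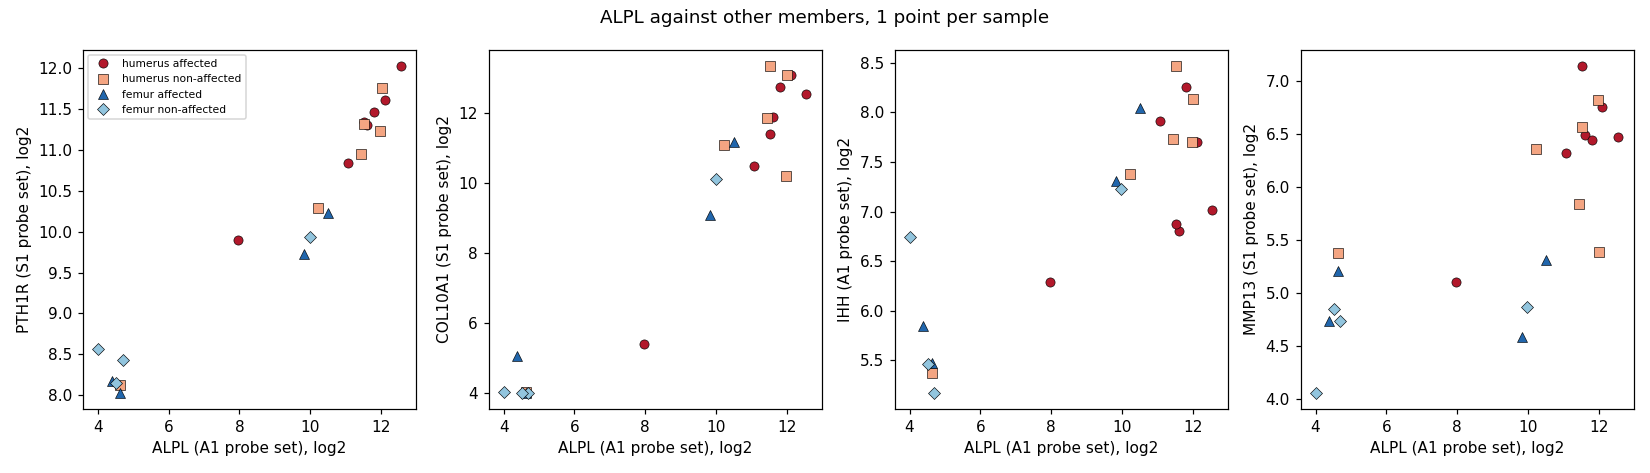
PTH1R, COL10A1, the A1 probe set of IHH and the S1 probe set of MMP13 against ALPL, all in log2 units, with 1 point per sample and symbols for the 4 groups. PTH1R follows ALPL in the humerus. In the femur PTH1R is high, at least 9.73, in the 3 samples in which ALPL lies between 9.82 and 10.49. Among the femoral samples with low ALPL the order is not shared: non-affected 1/2 has the lowest ALPL (4.01) and the highest PTH1R (8.56) of these. MMP13 reads at most 5.31 in every femoral sample, also in the 3 with high ALPL.

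Among 8071 named probe sets, the genes most like each member were ranked by Pearson's r over the 21 samples after removal of the group means, as a description of samples that share arrays and site. The low humeral and high femoral samples named above enter each r and can carry much of it. The ranks were not repeated without them. ALPL was followed most closely by PTH1R (r = 0.96), EFHD1, a mitochondrial calcium-binding protein (0.95), COL10A1 (0.95), the bone sialoprotein gene IBSP (0.94) and the cytokine IL17B (0.94). COL10A1 had ALPL (0.95), PTH1R (0.94), EFHD1 (0.94) and IL17B (0.93). PTH1R had ALPL (0.96), COL10A1 (0.94), CPPED1 (0.94) and EFHD1 (0.93). MMP13 (S1) had a different set: LCP2, an adaptor of blood cell signalling (0.85), MGST1 (0.84), LOC396781 (0.83), LOC100154873 (0.83) and SNX10 (0.81), a sorting protein that osteoclasts need. The S1 probe set of IHH had LOC100516665 (0.80), CEBPA (0.78), CCDC51 (0.77), CLN6 (0.75) and the thyroid hormone receptor THRA (0.75). The A1 probe set of IHH, taken in addition, had COL10A1 (0.85), FKBP9 (0.85), PTH1R (0.84), PCOLCE2 (0.84) and ALPL (0.83). Without removal of group means, PTH1R still stood first for ALPL (r = 0.97) and ALPL first for COL10A1 (0.965) and for PTH1R (0.97), while COL10A1 left the first 5 of PTH1R.

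The wider pathway was read from lists of genes around hypertrophy, using the brightest probe set of each. No listed gene passed in any comparison of status, so the counts that follow are for femur against humerus, where 51.8% of all probe sets passed and the median difference was -0.12. Of the hedgehog and parathyroid hormone-related genes 8 of 22 were named on the array and 5 were tested. PTHLH, which encodes the ligand of PTH1R, was higher in the femur by 0.63 (adjusted p = 0.0394), while PRKACB, a catalytic subunit of the kinase that acts after the receptor, was lower (difference -0.51, adjusted p = 0.0132). The median of the 5 was 0.12. In humerus non-affected 5, where PTH1R had its lowest humeral value (8.13), PTHLH had its highest (10.19). In femur affected 4, where PTH1R was also low (8.17), PTHLH had its lowest femoral value (8.21).

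Of 13 tested transcription factors of chondrocyte maturation 5 passed, 3 higher and 2 lower in the femur, with a median of -0.16. FOXA2, a forkhead factor that drives hypertrophic genes, was lower (difference -1.77, adjusted p = 7.39e-06), as was MSX1 (-0.34). SOX9, which keeps chondrocytes in the cartilage programme and restrains hypertrophy, was higher (1.15, adjusted p = 5.13e-04), and so were the kinase SIK3 (0.46) and ZNF219 (0.34), a partner of SOX9. FOXA2 was not at the floor in any sample. In humerus non-affected 5, where COL10A1 was at the floor, it read 9.99, the lowest of its group (the others 10.33 to 11.28). Of 17 tested growth factor genes 6 passed, with a median of 0.05: SFRP1, a Wnt inhibitor (1.39), FGF18 (0.88), the receptors FGFR2 (0.60) and GHR (0.28) were higher in the femur, and IGF1 (-1.03) and FGF2 (-0.68) were lower.

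Of 8 tested mineralisation genes 6 passed, 4 lower and 2 higher in the femur, with a median of -0.40. PHOSPHO1, a phosphatase of matrix vesicles, was lower (difference -0.89, adjusted p = 0.0169), as were the annexins ANXA2 (-0.59) and ANXA5 (-0.42) and the mineralisation inhibitor MGP (-0.38). AHSG (0.53) and DMP1 (0.23) were higher. In the femur PHOSPHO1 read 7.88 in affected 1, 8.55 in affected 3 and 8.73 in non-affected 4, and between 6.44 and 7.67 in the other 5 samples. The 3 samples with high ALPL were thus the highest for PHOSPHO1 too, but with affected 1 only just above non-affected 3 (7.67) and no gap of the kind seen in ALPL. Of 11 tested genes around collagenase activity 4 passed, all lower in the femur, with a median of -0.37: MMP3 (-2.02), MMP1 (-1.90, with 3 samples at the floor), MMP9 (-0.87) and the inhibitor TIMP3 (-0.71). MMP14, which activates MMP13, differed by -0.37 and did not pass (adjusted p = 0.111). Of 6 tested cartilage matrix genes ACAN (-0.37) and HAPLN1 (-0.93) were lower and CILP (0.97) was higher.

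Markers of other cells were counted in the same way, beside the 51.8% of all probe sets that passed and their median of -0.12. In the femur 4 of 7 tested osteoblast and bone matrix genes were lower and 1 higher (DMP1), with a median of -0.39. IBSP differed by -5.57 and the osteocalcin gene BGLAP by -3.06. Of the osteoclast genes 6 of 7 were lower and 1 higher (CALCR), with a median of -0.88. Among the lower ones were the acid phosphatase ACP5 (-5.18) and the integrin ITGB3 (-3.10). For endothelial genes these counts were 6 lower and 1 higher (ESAM) of 8, with a median of -2.19. For macrophage genes they were 7 and 0 of 8 (median -1.98) and for neutrophil genes 6 and 0 of 6 (median -2.61). For erythroid genes they were 1 and 0 of 3 (median -0.50). Of 5 tested skeletal muscle genes 4 were higher (median 1.625). The mean of the osteoclast list ran from 7.52 to 9.71 in affected and 6.70 to 9.60 in non-affected humerus, and from 6.23 to 7.05 in affected and 6.72 to 7.39 in non-affected femur. For macrophage genes these ranges were 7.02 to 9.56, 5.47 to 8.85, 4.67 to 6.19 and 6.11 to 7.88, and for endothelial genes 6.96 to 8.09, 5.92 to 7.72, 5.24 to 6.76 and 5.14 to 6.99. For osteoblast and bone matrix genes they were 8.51 to 10.26, 8.35 to 10.19, 7.85 to 9.16 and 7.72 to 8.51. For neutrophil genes they were 5.17 to 10.76, 4.66 to 11.50, 4.11 to 6.39 and 4.43 to 4.93. The part of these markers in the site difference of the members was not tested.

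Among the 3 femoral samples with high hypertrophic genes, several of these markers differed, while the osteoblast and bone matrix mean was high in all 3. In femur affected 3, with COL10A1 at 11.16 and ALPL at 10.49, the endothelial marker VWF, the macrophage marker AIF1 and ITGB3 were all at the floor, and ACP5 read 4.71. Other genes of the same lists were above the floor there. The osteoclast genes CTSK and ATP6V0D2 read 11.01 and 5.42, the endothelial genes TIE1 and PECAM1 7.15 and 6.23, and the macrophage gene C1QC 6.90. In femur affected 1, with COL10A1 at 9.08, VWF and ITGB3 were also at the floor, but the neutrophil mean (6.39) and the erythroid mean (8.22) were the highest of the femur, where the other 7 samples reached at most 4.93 and 6.84. Femur non-affected 4 differed from them, with ACP5 at 9.23, VWF at 6.70 and AIF1 at 7.74. IBSP, made by hypertrophic chondrocytes and osteoblasts, read 10.02, 9.60 and 9.42 in these 3 samples and at most 6.91 in the other 5. BGLAP read 9.42 in femur affected 1, 5.17 in affected 3 and 6.39 in non-affected 4. The mean of the osteoblast and bone matrix list, which holds both genes, was 9.16, 8.32 and 8.51 in the same order. It was at most 8.15 in the other femoral samples. In the humerus, both samples with low COL10A1 were also low for several lists of markers of other cells, but not for all lists or genes. Affected 7 had the lowest means of its group for osteoblast and bone matrix (8.51), osteoclast (7.52), macrophage (7.02) and neutrophil genes (5.17), and its IBSP (11.30) and BGLAP (4.82) were the lowest of that group. Its endothelial mean (7.40) was the second lowest of the group, though its ENG (7.08) was the highest and its PECAM1 (10.41) the second highest. Non-affected 5 had the lowest means of its group for osteoblast and bone matrix (8.35), osteoclast (6.70), macrophage (5.47) and endothelial genes (5.92), with IBSP at 6.41, ACP5 at 6.50 and VWF at the floor. Its neutrophil mean (4.79) was not the lowest, and its erythroid mean (7.40) and its SPP1 (13.445) were the second highest of the group. Humerus non-affected 1 also had low macrophage (6.51) and endothelial (6.31) means, but its COL10A1 read 13.09.

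**Figure D5:**
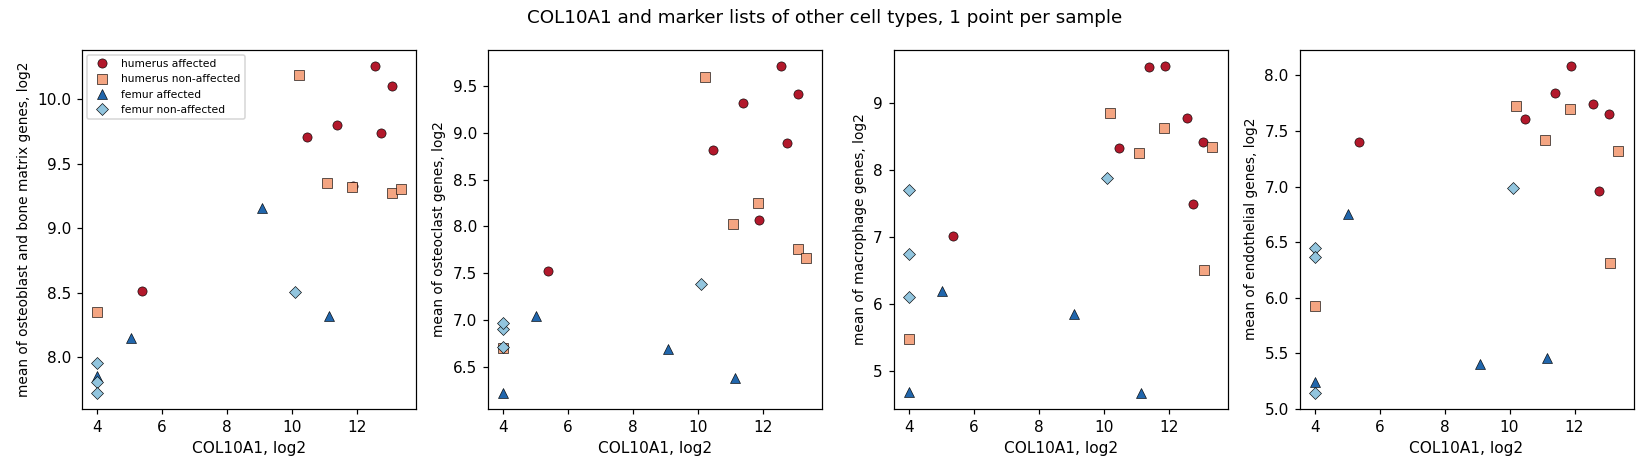
Means of the osteoblast and bone matrix, osteoclast, macrophage and endothelial lists (log2) against COL10A1 (log2), with 1 point per sample and symbols for the 4 groups. Femur affected 3, at a COL10A1 of 11.16, has a macrophage mean of 4.67, close to the 4.69 of femur affected 2 with COL10A1 at the floor, and an osteoclast mean of 6.39. The osteoblast and bone matrix mean is highest in the femoral samples with high COL10A1: affected 1 (9.16), affected 3 (8.32) and non-affected 4 (8.51).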

How the data were processed

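Total RNA of cartilage was labelled with biotin and hybridised to Affymetrix Porcine Genome Arrays, per the labels' protocols. The deposited table holds log2 values with a floor at 4; the submitters' processing notes name GCOS 1.1.1, and no source used here states the normalisation. Values were used as deposited. By the platform annotation 10099 probe sets carry 1 symbol, 198 carry several and 13826 are unnamed here. Pairs of a group's arrays with a difference SD under 0.25 were averaged. The 124 controls were left out, as were means below 5.30, the 30th percentile. limma 3.58.1 (R 4.3.3; lmFit, eBayes) fitted site plus status, or the 4 group means, with Benjamini-Hochberg adjustment over 16799 probe sets and a threshold of 0.05. Permutation tests used Python 3.11.15, numpy 2.4.6 and scipy 1.17.1, and plots matplotlib 3.10.9. The limma and correlation steps were tested on simulated data. Precision is limited by the number of arrays.

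The members and lists were chosen with earlier results of these data known. All member probe sets are named; from each list, genes called in a comparison are named, and for likeness the first 5 named genes, of which 1 gene is not reported here. Other genes and single-sample values were chosen after their values were seen. Alternatives covered the filter, scaling, floor, averaging, variance model, weights, probe sets per gene, samples of a fit and each left-out sample.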

Additional observations from a re-analysis of the deposited data

Results flagged for a closer look

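In 9 of the 28 combinations of member probe set and group, 1 sample lay far from the rest of its group (Dixon's criterion at 95%, which chance meets in about 1 of 20 groups; the combinations share samples). Humerus affected 7 was the lowest of its group for ALPL (7.97, next 11.06), COL10A1 (5.38, next 10.48) and MMP13 at its S1 probe set (5.10, next 6.33). Humerus non-affected 5 was the lowest of its group for ALPL (4.64, next 10.21), COL10A1 (4.01, next 10.21) and IHH at its A1 probe set (5.37, next 7.38). Femur non-affected 4 was the highest of its group for ALPL (9.98, next 4.70) and COL10A1 (10.11, next 4.01). Femur non-affected 1/2 was the lowest of its group for MMP13 at its S1 probe set (4.06, next 4.74).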

How the results depend on the processing

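No paired analysis was possible because the labels give the groups no shared replicate numbers and name no sib pairs. In 845 repeats of the members' status tests under other settings none was called (smallest adjusted p = 0.200). For femur against humerus, ALPL, PTH1R, MMP13 (S1) and IHH (S1) kept their calls under every setting that tested them. MMP13 (S1) fell below the filter at the 50th percentile and was not tested there, and without a filter its limma adjusted p was 4.05e-05. COL10A1 lost its call only with floor values missing, and its difference ran from -5.05 to -3.94 with 1 sample left out. IHH (A1) passed with array weights (adjusted p = 0.0206) and without 1 of these 5 samples: affected 7 or non-affected 5 of the humerus, or affected 1, affected 3 or non-affected 4 of the femur (adjusted p from 0.0133 to 0.124 over the left-out samples). Over all probe sets, the 192 calls in the femur became 59 under array weights, 67 when each gene kept 1 probe set, 621 with every array as its own sample, 4 with femoral arrays alone, and 52 to 450 with 1 sample left out. The 45 for the difference between sites became 21 with array weights, 224 with every array as its own sample, and 14 to 97. The 8707 between joints became 3093 with 1 probe set per gene, where fewer are tested, and 8130 to 9028 with 1 sample left out. Over both sites 0 became 22 with equal weight of the sites and stayed 0 with 1 sample left out, as did the 0 in the humerus. Of the 20 relations the 6 passing became 1 without the 2 farthest samples, and 11 of 42 with all 7 probe sets. The causes were not tested. The floor limits COL10A1 most.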
